A study of Mus musculus with 4 samples.

Results

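The genes of fatty acid oxidation and synthesis were examined in irradiated small intestine (SI), taken 1 day after total-body irradiation (TBI) with 12 Gy, with p53 present (p53+/+) or deleted (p53-/-). They are 37 genes given by name, all of them among the 56748 genes of the deposited count table, and all 37 were among the 16094 genes with enough counts to be tested. By role, 14 are enzymes and carriers of oxidation, 3 activate fatty acids, 2 are thioesterases, 10 belong to synthesis, 5 to the storage and release of triglyceride, and 3 are regulators. Each genotype was measured in 2 libraries of poly-A RNA, named here by the numbers of their columns, 7 and 8 for p53+/+ (WT in the labels) and 9 and 10 for p53-/-. The p53-/- mice lack p53 in every cell, both groups came from the same commercial breeder and were stated to be matched for age and gender, and every animal was irradiated with a Cs-137 source, so no unirradiated SI enters the comparison. The labels name whole SI as the tissue, with no isolation of the epithelium.

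Long-chain fatty acids are first joined to coenzyme A, then carried into mitochondria as carnitine esters and shortened there by a repeating cycle of dehydrogenation, hydration, dehydrogenation and thiolysis. In synthesis, acetyl-CoA is carboxylated to malonyl-CoA, assembled into palmitate, and then elongated and desaturated. The SI epithelium takes up dietary fat, burns part of it and packs most of it into triglyceride, and PPARα is a nuclear receptor that is known to drive many oxidation genes in this tissue.

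Library totals lay between 15005479 and 22173164 counts, and the 37 genes took between 0.338% and 0.478% of them. The Trp53 level was 57.7 and 47.1 CPM in p53+/+ animals against 19.8 and 22.5 CPM in p53-/- animals, where CPM is the count scaled to a fixed library total after TMM normalization, which sets the libraries to a common level. The counts cover the whole gene, so they do not show the deleted part. p53+/+ library 8 stood apart in muscle. Its 6 smooth muscle genes summed to 4495 CPM, against 481 to 995 CPM in the other libraries. p53-/- library 10 stood apart in B cell genes, which summed to 431 CPM there and to 21.8 CPM in library 9. It also stood apart in Xist, the X-inactivation transcript of female cells, with 588 counts against at most 4 elsewhere. By Xist, a female animal was seen only in library 10, so the stated matching for gender did not hold among these libraries. The part of sex in the results was not tested. The 18S rRNA gene Rn18s-rs5 took 4.59% of the counts in library 10 and 0.863% in library 9, both above the 0.296% and 0.473% of p53+/+ libraries 7 and 8, and its part in the results was not tested. All 13 general epithelium genes (Epcam, Cdh1, Krt8 and others) had a log2 fold change below 0 between p53-/- and p53+/+, with a median of -0.46, none past the threshold with edgeR, 2 at an unadjusted p under 0.05 and 3 with DESeq2. Of 10 enterocyte genes 9 were below 0, with a median of -0.58, and they summed to 19494 and 20947 CPM in p53+/+ libraries 7 and 8 and to 18062 and 14245 CPM in p53-/- libraries 9 and 10. The part of these shifts in the results on fatty acid genes was not tested beyond the scaling described with them. In pieces of whole tissue, fewer cells of a type and less RNA per cell cannot be told apart.

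**Figure D1:**
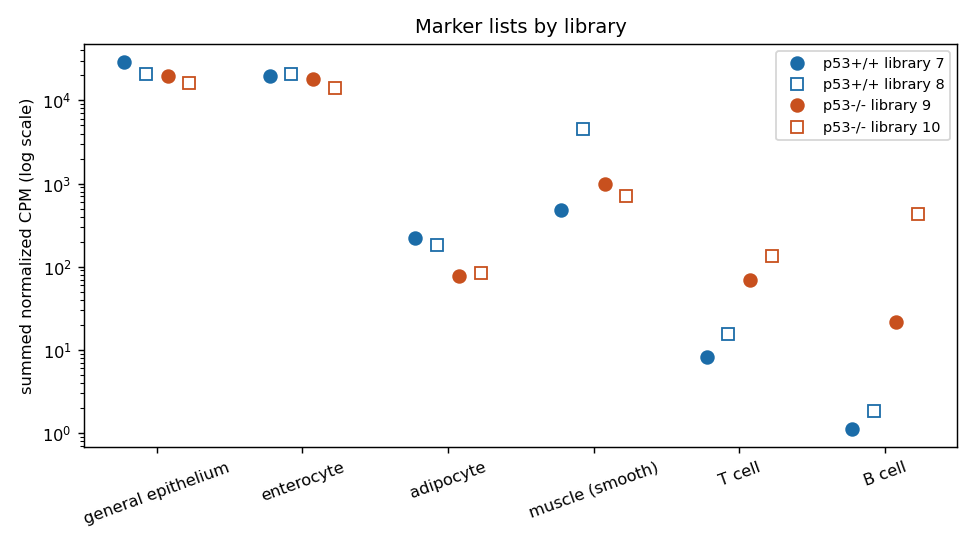
Summed normalized CPM (log scale) of marker genes of 6 cell types in each of the 4 libraries, circles for libraries 7 and 9 and open squares for 8 and 10. General epithelium genes were highest in p53+/+ library 7, muscle genes in p53+/+ library 8, and T and B cell genes were higher in both p53-/- libraries.

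Among the 37 genes, Angptl4 fell in the p53-/- SI, and it was the only one past the threshold, an adjusted p of 0.05 from edgeR's quasi-likelihood test over all genes tested. Over all genes, 0.491% passed in either direction, 0.193% of them lower and 0.298% higher, and none of the 37 was higher. At an unadjusted p under 0.05, 14 of the 37 were lower, where 7.92% of all genes tested were, and 3 were higher, where 10% of all genes were. The 14 were Angptl4, the activating enzymes Acsl1 and Acsl3, 5 oxidation genes, all 3 regulators, Elovl1, Dgat2 and Plin3, and the 3 were Fads1, Fads2 and Elovl6. In 22 genes both p53-/- libraries lay under both p53+/+ libraries, as in 24.4% of all genes, and in 4 they lay above, as in 26.4% of all genes. DESeq2 called 6 lower (Angptl4, Acsl1, Acsl3, Crat, Acaa2 and Ppara) and 1 higher (Fads2), against 3.5% and 5.05% (8.54% in all) of the genes to which it gave an adjusted p.

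**Figure D2:**
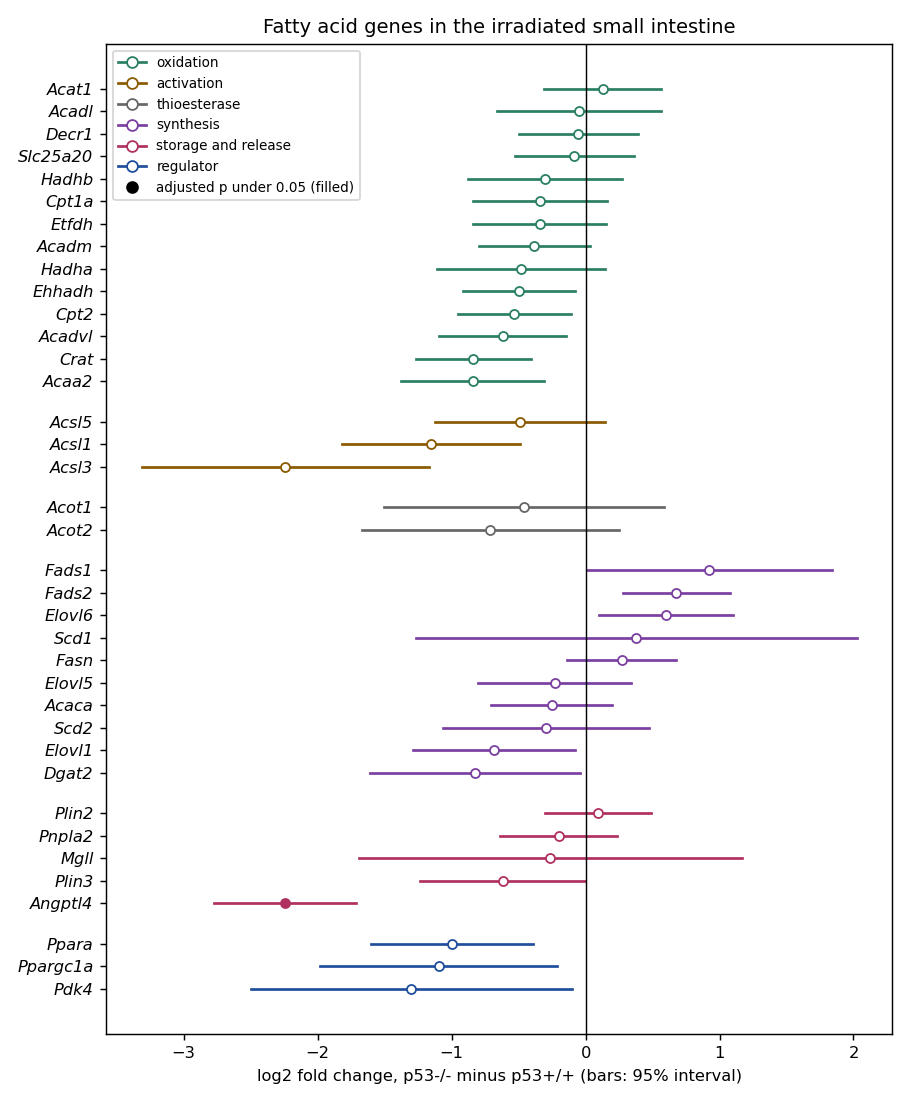
Log2 fold change of each of the 37 genes between p53-/- and p53+/+ libraries with its 95% interval from the edgeR fit, grouped by role, with a filled point where the adjusted p was under 0.05. Angptl4, at -2.24, is the filled point. Fads1, Fads2 and Elovl6 have intervals wholly above 0, between 0.01 and 1.84.

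Oxidation and synthesis genes differed in their values. Of the 14 oxidation genes, 13 had a log2 fold change below 0, with a median of -0.36, against a median of -0.01 over all genes tested, of which 50.7% were below 0. Of the 10 synthesis genes, 5 were below 0 and 5 above, with a median of 0.02. The oxidation median was thus 0.38 lower on the log2 scale than the synthesis median, a description of these genes with no test. A change of scale moves all genes by about the same amount, so the scaling alternatives could hardly change this gap. With each library left out it lay between -0.60 and -0.29. The level of each list did depend on the scale. With the libraries scaled to the general epithelium genes, the median of all genes moved by 0.46, the oxidation median was 0.11 and the synthesis median 0.49, and only 5 oxidation genes (Crat, Acaa2, Acadvl, Cpt2 and Ehhadh) remained below 0, at -0.37, -0.34, -0.14, -0.05 and -0.04 in that order. On that scale Elovl1 was at -0.18, Dgat2 at -0.30, Plin3 at -0.13 and Hadha at 0.03, while Fads2 was at 1.15 and Elovl6 at 1.10. Relative to all genes the oxidation genes were then at -0.34 and the synthesis genes at 0.03, next to -0.35 and 0.03 under TMM.

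Oxidation begins with the carnitine shuttle, in which Cpt1a makes the carnitine ester at the outer membrane, Slc25a20 carries it inward and Cpt2 returns it to coenzyme A. Cpt2 was at 157 and 135 CPM in p53+/+ animals against 100 and 101 CPM in p53-/- animals. Both p53-/- libraries lay under both p53+/+ libraries, at -0.53 on the log2 scale (standard error 0.168, unadjusted p = 0.0222, adjusted p = 0.203 from edgeR). Cpt1a, the step at which malonyl-CoA restrains the pathway, was at 202 and 158 against 150 and 135 CPM, a log2 fold change of -0.34 with a 95% interval from -0.84 to 0.16. Slc25a20 overlapped between the genotypes, at 141 and 130 against 139 and 117 CPM, with an interval from -0.53 to 0.36. Crat transfers short acyl groups to carnitine and buffers acetyl-CoA. It was at 114 and 101 CPM in the p53+/+ SI and at 65.0 and 55.2 CPM in the p53-/- SI, 1.79-fold lower in the latter, with an adjusted p of 0.110 from edgeR and 0.00633 from DESeq2. Among the carnitine genes, Cpt2 and Crat thus had the widest gap between genotypes, and neither passed the edgeR threshold.

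Within the mitochondrial cycle, the acyl-CoA dehydrogenases carry out the first step, each for a range of chain lengths. Acadvl, for very long chains, was at 89.3 and 73.2 CPM in the p53+/+ SI and at 58.2 and 47.6 CPM in the p53-/- SI (log2 fold change -0.62, unadjusted p = 0.0193, adjusted p = 0.192 from edgeR). Of its exonic length, 42.9% is overlapped on the opposite strand by Dvl2, and the strand setting of the counting was not given, so some of its reads may be those of Dvl2. Acadm, for medium chains, was at 127 and 119 against 101 and 88.2 CPM, without overlap, with an interval of the log2 fold change from -0.80 to 0.03. Acadl, for long chains, had the highest level per length of the oxidation genes and showed no such order, at 200 and 132 CPM in p53+/+ animals against 157 and 165 CPM in p53-/- animals, with an interval from -0.66 to 0.57. The dehydrogenases thus differed in whether their genotypes overlapped. The interval of Acadl included the log2 fold changes of Acadvl and Acadm, and no difference among these genes was tested. Etfdh, which passes their electrons to the respiratory chain, was at 103 and 76.2 against 73.2 and 68.3 CPM.

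Hadha and Hadhb encode the α and β subunits of the trifunctional protein, which carries out the remaining steps for long chains, and their genes lie head to head. In the RefSeq annotation of GRCm38.p6 their starts are 272 bases apart, so that 228 bases of their promoter windows are the same DNA read from opposite strands. The stretch shown is the part of the Hadha window, 68 bases at chr5:30155163-30155230 on the minus strand, that no annotated exon covers, and it is printed because any factor bound there would sit between both genes.
Hadha-Hadhb: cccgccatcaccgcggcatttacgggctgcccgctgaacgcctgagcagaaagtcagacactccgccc
Hadha was at 357 and 238 CPM in p53+/+ animals against 215 and 211 CPM in p53-/- animals, and Hadhb at 154 and 108 against 97.9 and 115 CPM. Their log2 fold changes were -0.48 and -0.30, with intervals from -1.11 to 0.14 and from -0.88 to 0.27. Both genes were higher in p53+/+ library 7 than in every other library, and the difference between the p53+/+ libraries was 1.5-fold for Hadha and 1.42-fold for Hadhb. Without library 7 the log2 fold change of Hadha was -0.15, and without library 8 it was -0.75. Of the 50-base windows of Hadhb, 18.1% are shared with the gene model Gm13910, so part of its reads could have been assigned there or lost.

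Acaa2, the mitochondrial thiolase for medium chains, had the lowest log2 fold change of the oxidation genes, beside Crat. It was at 114 and 81.6 CPM in the p53+/+ SI and at 51.8 and 57.4 CPM in the p53-/- SI, and this was a log2 fold change of -0.84 (standard error 0.212) that had an adjusted p of 0.146 from edgeR and 0.021 from DESeq2. Acat1, which cleaves acetoacetyl-CoA and also serves ketone bodies and isoleucine, was the one oxidation gene with a value above 0, at 62.8 and 50.8 against 58.9 and 65.2 CPM, and its genotypes overlapped. Decr1, needed for unsaturated chains, overlapped as well, at 73.7 and 62 against 60.0 and 70.7 CPM. Ehhadh, the peroxisomal bifunctional enzyme and a classical PPARα target, was at 83.7 and 81.8 CPM in the p53+/+ SI and at 64.2 and 53 CPM in the p53-/- SI (log2 fold change -0.50, unadjusted p = 0.0272, adjusted p = 0.219 from edgeR), and it was -0.31 without library 10.

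All 14 oxidation genes were higher in p53+/+ library 7 than in p53+/+ library 8, by a median of 1.23-fold, and so were 29 of the 37 genes, where 55.1% of all genes tested were. Library 7 was also the one with the highest general epithelium level and the lowest muscle level. The part of either in the oxidation values was not tested. Without library 7 the oxidation median was -0.15, and without library 8 it was -0.53.

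Acyl-CoA synthetases commit a fatty acid to either fate. All 3 measured here were lower in both p53-/- libraries than in both p53+/+ libraries, although with scaling to the epithelium genes the log2 fold change of Acsl5 was 0.00, next to -0.65 for Acsl1 and -1.69 for Acsl3. Acsl3, an enzyme of the endoplasmic reticulum and of lipid droplets, was at 121 and 50.8 CPM in the p53+/+ SI and at 19.5 and 16.9 CPM in the p53-/- SI. This 4.73-fold difference, a log2 fold change of -2.24, matched that of Angptl4 in size but had a standard error of 0.427 against 0.210, and its p53+/+ libraries differed from each other by 2.39-fold (adjusted p = 0.103 from edgeR and 5.08e-06 from DESeq2). Without p53+/+ library 7 its log2 fold change was -1.47 and without library 8 it was -2.74, and it passed the edgeR threshold in either case, but not without library 9 or 10. A small part of its exonic sequence, 5.60%, is shared on the same strand with Utp14b. Acsl1, a PPARα target linked to oxidation, was at 80.4 and 50.1 CPM against 31.8 and 26.8 CPM, 2.23-fold lower in the p53-/- SI (adjusted p = 0.128 from edgeR and 0.00592 from DESeq2), with a log2 fold change of -1.16 that was -0.77 without library 7. Acsl5, the synthetase typical of the enterocyte, had the highest level per length of all 37 genes, 132 RPKM (counts scaled to exon length and library size) in the p53+/+ SI and 94.1 RPKM in the p53-/- SI. It was at 752 and 536 against 478 and 437 CPM, with an interval of the log2 fold change from -1.13 to 0.14.

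The promoter of Acsl3 is shown because, of the genes with a promoter in the table used, it had the largest difference. It is the 250 bases before the start, chr1:78657575-78657824 on the plus strand (RefSeq, GRCm38.p6), and it held none of the motifs searched.
Acsl3: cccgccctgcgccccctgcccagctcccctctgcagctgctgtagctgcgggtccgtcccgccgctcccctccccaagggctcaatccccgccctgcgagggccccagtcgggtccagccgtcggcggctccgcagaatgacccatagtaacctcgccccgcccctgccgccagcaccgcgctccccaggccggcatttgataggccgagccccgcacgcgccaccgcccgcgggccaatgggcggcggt

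The thioesterases Acot1 (cytosolic) and Acot2 (mitochondrial) release free fatty acids from acyl-CoA, and both are PPARα targets in liver. Acot2 was at 11.8 and 7.07 CPM in the p53+/+ SI and at 5.52 and 6.02 CPM in the p53-/- SI, and Acot1 at 14.8 and 7.27 against 7.76 and 8.31 CPM. Their intervals, from -1.67 to 0.25 and from -1.5 to 0.59, both included 0. The pair are close paralogs, since 24.5% of the 50-base windows of Acot2 occur in Acot1 as well, so their values are uncertain as to which gene a read came from.

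**Figure D3:**
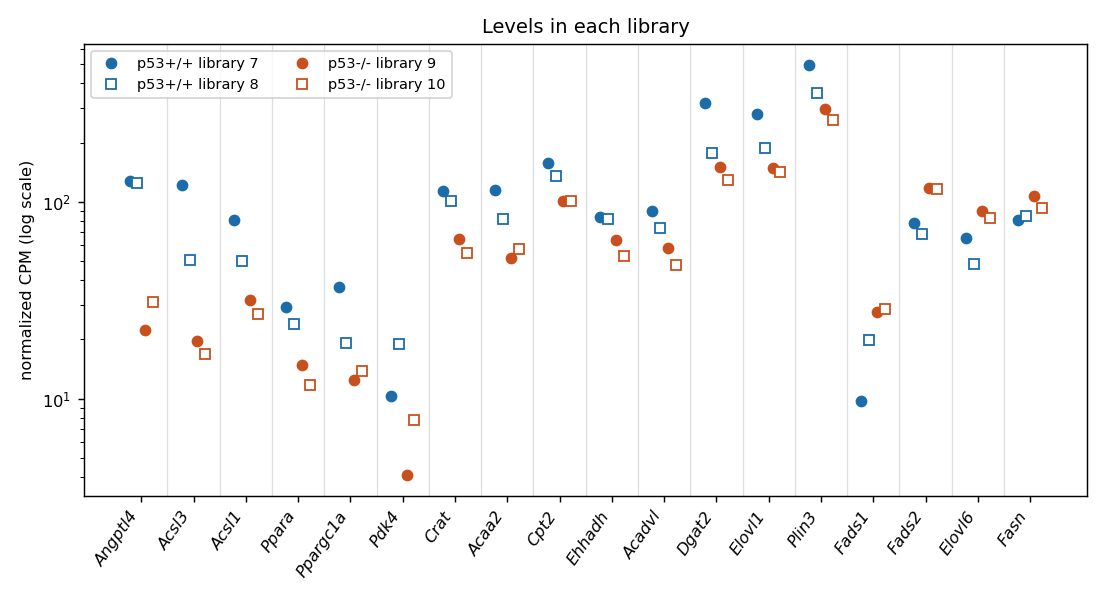
Normalized CPM (log scale) in each library for the 17 genes with an unadjusted p under 0.05, and for Fasn; circles are libraries 7 and 9 and open squares libraries 8 and 10. Angptl4 shows the widest gap between genotypes relative to the spread within them, and Acsl3, Acsl1 and Ppargc1a were higher in p53+/+ library 7 than in library 8.

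In synthesis, values lay on both sides of 0, among the desaturases as among the elongases. Fads2 and Fads1, the Δ6 and Δ5 desaturases that make polyunsaturated fatty acids, were both higher in both p53-/- libraries. Fads2 was at 77.7 and 68.3 CPM in the p53+/+ SI and at 118 and 116 CPM in the p53-/- SI, 1.60-fold higher in the latter (log2 fold change 0.68, standard error 0.160, adjusted p = 0.134 from edgeR and 0.036 from DESeq2). Fads1 was at 9.72 and 19.9 against 27.6 and 28.5 CPM, with a log2 fold change of 0.92 (unadjusted p = 0.0483, adjusted p = 0.274 from edgeR). It was 1.52 without p53+/+ library 8, past the threshold, and 0.51 without library 7. Elovl6, which lengthens palmitate to stearate, was at 65.6 and 48.2 against 90.0 and 82.8 CPM (log2 fold change 0.60, unadjusted p = 0.0267, adjusted p = 0.218 from edgeR), and it was at 0.39 without library 8.

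Fasn, the multienzyme that assembles palmitate, was also higher in both p53-/- libraries, at 80.9 and 84.9 against 107 and 92.7 CPM, with an interval of the log2 fold change from -0.14 to 0.67. Acaca, the carboxylase that supplies its malonyl-CoA, went the other way, at 28.8 and 29.5 against 25.6 and 23.2 CPM, with an interval from -0.70 to 0.20. Of its 50-base windows, 29.2% are shared with the gene model Gm5182. The successive enzymes of palmitate synthesis thus had log2 fold changes of opposite sign, neither past the threshold, and with scaling to the epithelium genes both were above 0 (0.20 for Acaca and 0.72 for Fasn).

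Elovl1, the elongase of very long saturated chains and the synthesis gene with the highest level per length, was lower in both p53-/- libraries, at 279 and 188 against 149 and 142 CPM (log2 fold change -0.68, unadjusted p = 0.0329, adjusted p = 0.235 from edgeR), and its value was -0.36 without p53+/+ library 7. Dgat2, which adds the last acyl chain of triglyceride, was at 317 and 177 CPM in the p53+/+ SI and at 150 and 128 CPM in the p53-/- SI (log2 fold change -0.82, unadjusted p = 0.0421, adjusted p = 0.259 from edgeR). Without p53+/+ library 8 the value for Dgat2 was -1.19, past the threshold, and without library 7 it was -0.33. Elovl5, the elongase of polyunsaturated chains, overlapped between the genotypes, at 70.2 and 49.8 against 56.8 and 45.4 CPM.

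The promoter before the second RefSeq start of Elovl1 was the only one among these genes with a match to the relaxed PPAR motif, which is AGGNCA repeated after 1 free base, where N is any base. It is chr4:118429451-118429700 on the plus strand (RefSeq, GRCm38.p6), with the match in capitals, which reads as the motif on the opposite strand and ends 82 bases before the start.
Elovl1: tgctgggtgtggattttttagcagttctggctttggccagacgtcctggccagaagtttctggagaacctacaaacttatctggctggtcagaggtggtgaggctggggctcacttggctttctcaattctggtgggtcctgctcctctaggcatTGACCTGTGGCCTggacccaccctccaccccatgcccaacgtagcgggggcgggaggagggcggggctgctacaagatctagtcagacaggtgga

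The stearoyl-CoA desaturases varied more between animals than between genotypes. Scd1 was at 28.8 and 31.6 CPM in p53+/+ libraries 7 and 8 but at 14.1 and 64.4 CPM in p53-/- libraries 9 and 10, on either side of both p53+/+ libraries. Scd2, which was far more abundant, was at 275 and 328 CPM in the p53+/+ SI and at 311 and 180 CPM in libraries 9 and 10. In library 10, therefore, Scd1 was the highest and Scd2 the lowest of the 4 libraries. The intervals of their log2 fold changes ran from -1.27 to 2.02 and from -1.06 to 0.47, and the sign of Scd1 turned without library 10, to -1.05.

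Angptl4 is a secreted inhibitor of lipoprotein lipase, made on fasting and fatty acid exposure, and a PPAR target. It was at 128 and 124 CPM in p53+/+ animals against 22.4 and 30.9 CPM in p53-/- animals. The p53+/+ libraries were close to each other and lay far above both others (126 ± 2.55 CPM against 26.6 ± 6.04 CPM, SD, n = 2 each), a 4.74-fold difference or -2.24 on the log2 scale, with a standard error of 0.210 (adjusted p = 0.0297 from edgeR and 1.8e-15 from DESeq2). The direction held under all 13 alternatives, between -2.44 and -1.76. The call held under 10 of them and was lost without p53-/- library 9 (log2 fold change -2.03, adjusted p = 0.0681 from edgeR), without library 10 (-2.44, adjusted p = 0.189) and with scaling to the epithelium genes (-1.76, adjusted p = 0.0675). Angptl4 is also made by fat cells. Of the 13 adipocyte markers, 10 could be tested and all 10 had a log2 fold change below 0, Cfd and Car3 past the threshold. Their median was -3.76, and -2.71 with 3 counts set for p53-/- libraries where a gene had at most 3 in each. The list summed to 221 and 182 CPM in p53+/+ animals against 76.4 and 83.9 CPM in p53-/- animals. Its most abundant genes were Cidec and Lipe, and Lipe was at 60.8 and 51.4 against 47.6 and 61.2 CPM. Cfd was at 10.8 and 15.8 against 0 and 0.05 CPM, and Car3 at 12.3 and 22.2 against 0.22 and 0.25 CPM. The defining marker Adipoq had 2.48 and 3.31 CPM in p53+/+ libraries 7 and 8, where Angptl4 had 128 and 124 CPM, and had 0 and 3 counts in the p53-/- libraries. The part of fat cells in the Angptl4 values was not tested.

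Lipid droplets are coated by perilipins and emptied by lipases. Plin3, the most abundant of these genes per length, was at 498 and 355 CPM in the p53+/+ SI and at 296 and 259 CPM in the p53-/- SI (log2 fold change -0.62, unadjusted p = 0.0483, adjusted p = 0.274 from edgeR), and the value was -0.35 without p53+/+ library 7. Plin2, the droplet protein that follows the amount of stored lipid, was at 80.5 and 75.9 against 77.9 and 88.6 CPM, with an interval of the log2 fold change from -0.30 to 0.49. Pnpla2, the lipase of the first step of triglyceride breakdown, was at 176 and 194 against 169 and 153 CPM. Mgll, the lipase of the last step, was at 11.0 CPM in p53+/+ library 7 and 39.2 CPM in library 8, on either side of the 22 and 19.8 CPM of the p53-/- libraries. The high Mgll value was in the library with the high muscle level, and the part of muscle in it was not tested.

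The 3 regulators among the 37 genes were lower in both p53-/- libraries, and none of them passed the threshold with edgeR. Ppara was at 29.3 and 23.9 CPM in the p53+/+ SI and at 14.8 and 11.8 CPM in the p53-/- SI, a 2.0-fold difference (log2 fold change -1.0, standard error 0.242, adjusted p = 0.140 from edgeR and 0.0223 from DESeq2). Ppargc1a, a coactivator of mitochondrial genes, was at 36.9 and 19.2 against 12.4 and 13.9 CPM (log2 fold change -1.10, unadjusted p = 0.0237, adjusted p = 0.208 from edgeR). It was -0.54 without p53+/+ library 7. Pdk4, the kinase that shuts pyruvate out of mitochondria when fat is burned, was at 10.3 and 18.9 CPM against 4.08 and 7.81 CPM (log2 fold change -1.30, unadjusted p = 0.0380, adjusted p = 0.249 from edgeR), and it was higher in library 8 of p53+/+ and library 10 of p53-/-. Without library 8 its value was -0.81. With the libraries scaled to the epithelium genes the 3 values were -0.52 for Ppara, -0.55 for Ppargc1a and -0.87 for Pdk4.

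The part of the Ppara promoter without an annotated exon is the 62 bases before the start, chr15:85735714-85735775 on the plus strand (RefSeq, GRCm38.p6). It is shown because it holds a match to the motif of NRF1 (GCGCA, a free base, GCGC), a factor of mitochondrial genes, in capitals and ending 21 bases before the start.
Ppara: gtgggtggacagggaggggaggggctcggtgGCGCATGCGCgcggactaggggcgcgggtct

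Promoter windows from 250 bases before to 50 bases after the start were found for 28 of the 37 genes, in 31 windows, and were searched on both strands for 8 motifs. The remaining genes, Angptl4 among them, had no window, so their promoters were not searched. The strict PPAR motif, AGGTCA repeated after 1 free base, was in 0 windows, and in 0.0396% of all 32851 mouse windows. Its relaxed form with AGGNCA was in 1, or 3.23%, against 0.381% of all windows. The hexamer AGGTCA alone, which lies within the strict PPAR motif and can overlap the relaxed one, was in 6 windows (Acadm, Acadvl, Cpt1a, Elovl1, Elovl6 and Plin2), or 19.4%, against 16.3% of all windows. The SREBP element TCACNCCAC was in 2 (Acsl1 and Ehhadh), or 6.45%, against 1.24% of all windows. The E-box CACGTG was in 3 (Elovl5, Mgll and Plin2), or 9.68%, against 7.15%, and the NRF1 motif in 3 (Etfdh, Fasn and Ppara), or 9.68%, against 4.6%. The CRE TGACGTCA was in 1 (Elovl5), or 3.23%, against 1.79%. The p53 half-site was in 0 of the 31 windows and in 8.36% of all windows. Each match is a description of the letters in these windows.

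**Figure D4:**
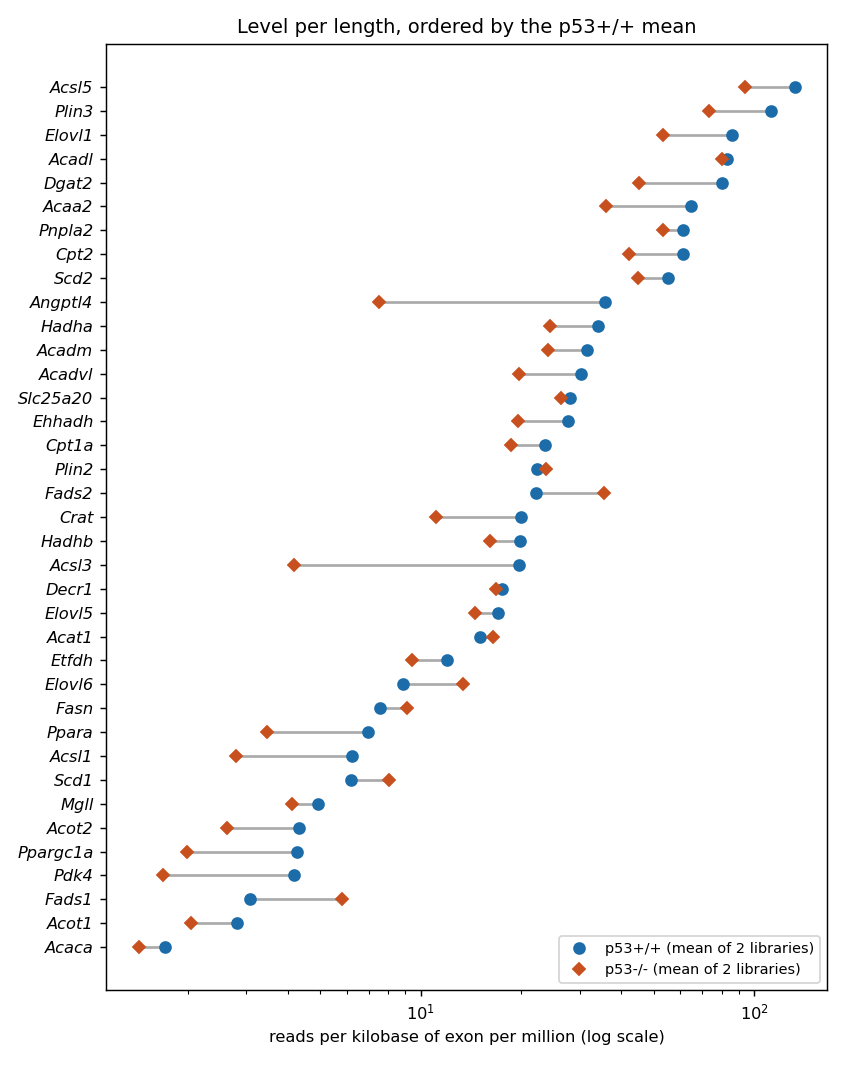
Mean level of the 37 genes per length (RPKM, log scale) in p53+/+ and p53-/- libraries, 2 each, in the order of the p53+/+ mean. Acsl5 was at the top and Acaca, at 1.71 and 1.43, at the bottom, and the longest lines are those of Angptl4 and Acsl3.

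Other genes of the same pathways, 125 in 7 lists, were read in the same fit, and 112 of them had enough counts. With edgeR 0 passed the threshold, 25 were lower and 5 higher at an unadjusted p under 0.05, and DESeq2 called 11 lower and 1 higher. The 25 lower were 22.3% of the genes tested here, next to 7.92% of all genes, where 10% of all genes were higher and DESeq2 called 3.5% lower and 5.05% higher. Of 16 tested genes of peroxisomal oxidation, 12 were below 0, with a median log2 fold change of -0.46, and 6 were lower at an unadjusted p under 0.05. The general epithelium genes had the same median, -0.46, and the enterocyte genes one of -0.58. Medians of these other lists with scaling to the epithelium genes are not given here. Among them were the bifunctional enzyme Hsd17b4, at 204 and 156 against 94.8 and 72.1 CPM (adjusted p = 0.112 from edgeR, 0.00101 from DESeq2), and Abcd3, an importer of acyl-CoA, at 381 and 292 against 190 and 161 CPM (adjusted p = 0.136 from edgeR, 0.00283 from DESeq2). The thiolase Acaa1b had the lowest value, -1.88, and the reductase Pecr the highest, 0.80. Hsd17b4 and Abcd3 had the library order of Crat, highest in library 7, then 8, 9 and 10. The summed general epithelium genes had this order as well, at 28752, 20797, 19445 and 16037 CPM. The share of all genes with this order was not counted, and the part of the epithelium in it was not tested. Among genes of ketone body metabolism, Oxct1 and Bdh1 had log2 fold changes of -0.31 and 0.04, neither at an unadjusted p under 0.05 with edgeR. Acss2, an acetyl-CoA synthetase kept on the same list, was at 0.09 (unadjusted p = 0.706 from edgeR). Of 18 tested genes listed for mitochondrial oxidation beyond the 14, 13 were below 0, with a median of -0.26 and Acad9 highest at 0.67. The lowest, at -2.18, was Cpt1c, an isoform of the endoplasmic reticulum, at 5.26 and 6.42 against 1.23 and 1.34 CPM.

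On the side of synthesis, 19 further genes were tested, of which 9 were below 0, with a median of 0.06. Acacb, the mitochondrial acetyl-CoA carboxylase whose product restrains Cpt1a, was at 8.05 and 6.94 CPM in the p53+/+ SI and at 15.3 and 18.7 CPM in the p53-/- SI, 2.26-fold higher in the latter (adjusted p = 0.134 from edgeR, 0.0176 from DESeq2). Acly, which makes cytosolic acetyl-CoA, was at 77.4 and 89.0 against 121 and 120 CPM (log2 fold change 0.54, unadjusted p = 0.0189, adjusted p = 0.189 from edgeR). These 2, named after their values were seen in the case of Acly, were higher in both p53-/- libraries, as Fads2, Fads1, Elovl6 and Fasn were. Thrsp had the lowest value of the list, -1.90. Of 13 regulators of synthesis, 12 were below 0, from Insig1 at -1.02 to Usf1 at 0.36. The list holds both activators and inhibitors, Insig1 among the latter, so this count gives no direction for synthesis. Srebf1, the factor that drives these enzymes, was at 75.3 and 75.5 against 72.2 and 66.0 CPM.

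Among 21 tested PPAR regulators and targets, 16 were below 0, with a median of -0.41, next to -0.46 for the general epithelium genes. Creb3l3, a factor of the endoplasmic reticulum that works with PPARα in the fasting response, had the lowest value, at 498 and 164 CPM in the p53+/+ SI and 56.8 and 52.4 CPM in the p53-/- SI (log2 fold change -2.60, adjusted p = 0.111 from edgeR, 7.52e-07 from DESeq2). Cidec, a droplet protein that is also on the adipocyte list, was at 117 and 43.2 against 18.4 and 13.8 CPM (log2 fold change -2.31, adjusted p = 0.113 from edgeR, 2.39e-05 from DESeq2). Both had the order of libraries seen in Acsl3, highest in library 7, then library 8, library 9 and library 10. This is also the order of the summed general epithelium genes. Of the 5 genes above 0, Esrrg had the largest value, 1.90, at 1.86 and 0.454 against 3.99 and 4.73 CPM. The coactivator Ppargc1b, also above 0, was at 11.5 and 8.24 against 14.2 and 11.7 CPM (log2 fold change 0.39). Of 20 tested genes of triglyceride storage and release, 17 were below 0, and 8 were lower at an unadjusted p under 0.05. Their median was -0.44, again next to -0.46 for the general epithelium genes. The lowest was the fat cell perilipin Plin1, with 33 and 51 counts in the p53+/+ libraries and 0 in both p53-/- libraries, at least 19.1-fold lower with 3 counts set for each of the latter, a bound that covers counting error only. The highest was Daglb, at 0.24.

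**Figure D5:**
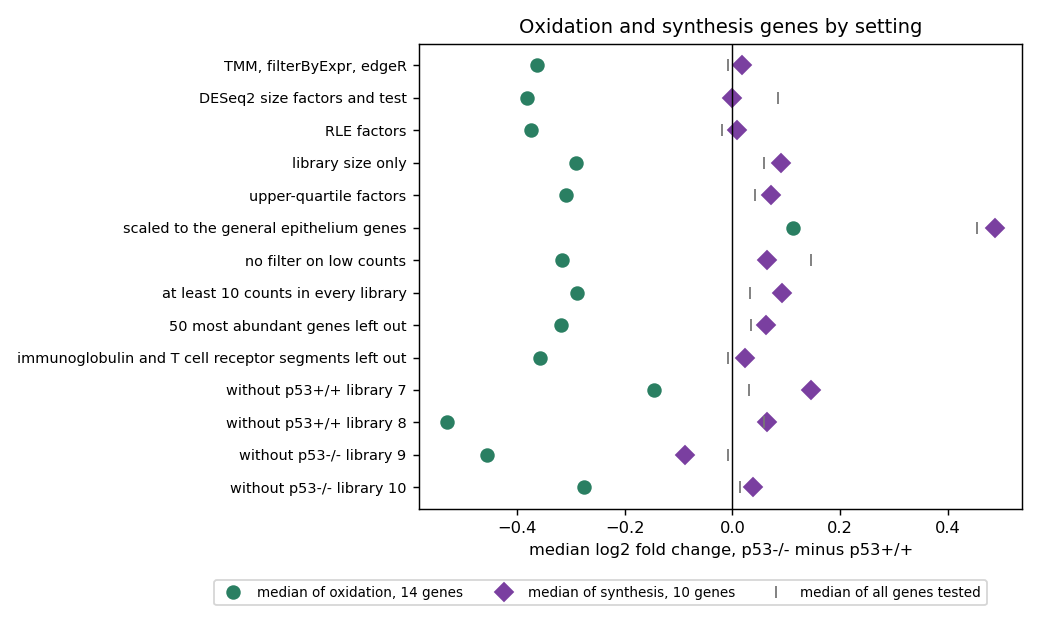
Median log2 fold change of the 14 oxidation genes, the 10 synthesis genes and all genes tested, under the reported settings (top) and 13 alternatives. The oxidation median lies to the left of the synthesis median in each. A change of scale moves both by about the same amount, as to 0.11 and 0.49 with the epithelium genes. The scaling settings therefore do not bear on their order.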

How the data were processed

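RNA of whole SI was sequenced by a company. The submitters' processing notes in the labels name fastp, HISAT2 2.0.5, featureCounts 1.5.0-p3 and DESeq2 1.20.0, while build, annotation and strand setting were not given in the sources used here. The table deposited by the authors holds unnormalized counts per gene for 4 libraries, and its column names carry the genotype but no replicate number of the labels. The labels number the libraries of a genotype as replicates, and the study describes its replicates as biological. Libraries within each genotype were not the same library deposited again (chi-square per degree of freedom 48.0 and 69.5).

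Counts were scaled by TMM and filtered by filterByExpr, and all 16094 remaining genes were tested two-sided with the quasi-likelihood test of edgeR 4.0.16 in R 4.3.3, with Benjamini-Hochberg adjustment and a threshold of 0.05. DESeq2 1.42.0 was an alternative. Values are CPM per library, and fold changes are p53-/- against p53+/+. Length, overlap and shared 50-base windows came from GENCODE M21 (GRCm38), and promoters from RefSeq. The fits were also run on simulated data, with outcomes that are not given here and were not used for any result. Alternatives were other scalings, filters and gene sets, and each library left out. The members and lists were chosen with earlier results of these data known. Values are given for members past the threshold, for those at an unadjusted p under 0.05 whose genotypes do not overlap, and for the most abundant and most changed of each role, and of the other lists for the most changed genes. Other members and genes given with values were chosen after these were seen. Some results of the other lists are not reported here.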

Additional observations from a re-analysis of the deposited data

How the results depend on the processing

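Of the 37 genes, 1 passed the threshold, against 7 with DESeq2, 12 with no filter on low counts, 0 with scaling to the epithelium genes (edgeR, 8 at an unadjusted p under 0.05) and 0 to 7 with each library left out in turn. It was 0 without p53-/- library 9 or 10 (9 and 10 at an unadjusted p), 2 without p53+/+ library 7 (Acsl3 and Angptl4) and 7 without library 8 (Acaa2, Acsl1, Acsl3, Angptl4, Dgat2, Fads1 and Ppargc1a). Under the reported settings 17 had an unadjusted p under 0.05, and 9 to 22 did with a library left out. Of the other pathway genes 0 passed, against 12 with DESeq2, 16 with no filter and 0 to 9 with a library left out (6 without library 7 and 9 without library 8). The oxidation median, -0.36, was 0.11 with scaling to the epithelium genes and -0.53 to -0.15 with a library left out. The synthesis median, 0.02, was 0.49 and -0.09 to 0.15 in these settings. With no filter the median of all genes moved by 0.15. For the other changes the cause was not tested. Of the 37 genes, 20 kept their sign under all 13 alternatives and 28 with each library left out, and scaling to the epithelium genes turned 15. No paired analysis was possible because the columns of the table carry no replicate number of the labels.

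With 2 libraries a genotype, differences of the size seen in most oxidation genes could be missed, since their intervals reach from below -0.80 to above 0 in several cases. All animals were irradiated, so a difference present before irradiation cannot be told apart from a response to it. The deposited table was counted without a stated strand, which touches Acadvl most.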
